A study of Homo sapiens with 8 samples.

Results

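Among the genes in which an ac4C antibody gave peaks both in SiHa cells and in SiHa cells without NAT10, a group was examined whose peaks in the 2 cell populations lie at different places along the gene. A gene was taken when its Ensembl identifier stood in both peak lists and when no block of its SiHa peaks shared a base, on the same strand, with a block of the knockout list, nor a block of its knockout peaks with the SiHa list. The rule was met by 1191 of 1971 shared genes (60.4%, 95% interval 58.2 to 62.6). These genes held 2117 of 12924 SiHa peaks and 1448 of 4556 knockout peaks, together 3565 of 17480 peaks. The other 780 shared genes had at least 1 overlap and held 2131 SiHa and 1111 knockout peaks. The places of the peaks chose these genes, so their separation is a description and was not tested.

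N4-acetylcytidine (ac4C) is a modified cytidine that NAT10 writes on RNA, in ribosomal and transfer RNA with the help of adapters, and in reports on messenger RNA also in coding sequence and untranslated regions. On ribosomal RNA and transfer RNA it is known to serve folding and decoding, and on messenger RNA its place along the transcript has been linked to stability and to initiation or elongation of translation. An antibody capture (acRIP-seq) enriches RNA fragments that the antibody binds, and a peak is a stretch where captured fragments outnumber those of the input. What the antibody bound in cells without the enzyme was not tested.

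SiHa is an established line from a human cervical squamous cell carcinoma. Input RNA and RNA captured with the antibody were sequenced from SiHa cells and from SiHa cells with a NAT10 knockout, 2 biological replicates in each of the 4 groups and 8 libraries in all, made with a stranded mRNA kit. How the knockout was made, and whether it is 1 clone or a pool, was not stated by the labels. The files hold 1 peak list for each population and no value for a replicate, so the depth is unknown, and how far replicates differ could not be measured for any value below. Intervals are 95% and cover the counting of genes or peaks only: exact binomial (Clopper-Pearson) for shares, and binomial order statistics for medians. The list named for SiHa with an added K was read as that of the knockout cells, which no label states in words. Of 6 epithelial markers, KRT5, KRT19 and EPCAM had SiHa peaks and KRT18 and KRT19 had knockout peaks, while no identifier could be given the names KRT8 and KRT17. Of 6 markers of blood, liver and vessel cells, 4 had SiHa peaks and 6 had knockout peaks. A peak list shows no expression level, and the part of such RNA in the results was not tested.

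Some peaks of these genes covered the first bases of a RefSeq transcript, which lets the sequence at the start of the gene be read from RefSeq windows of GRCh38.p14. The starts of 7 genes are shown, because 1 list had a peak over the start and the other had its peaks farther along the same gene. RANBP6, which codes for a relative of the importins, and BTF3, a subunit of the complex that meets nascent chains at the ribosome, were chosen after their values were seen. The first 30 bases are given 5′ to 3′, and capitals mark the pattern CNNCNNCNN, cytidines parted by any 2 bases, which has been described in ac4C-bearing messenger RNA. In the knockout list these were RAD23B (chr9:107283279-107283308, plus strand), RPS24 (chr10:78033863-78033892, plus strand), RANBP6 (chr9:6015595-6015624, minus strand) and BTF3 (chr5:73498442-73498471, plus strand). In the SiHa list they were PSMD14 (chr2:161308425-161308454, plus strand), HSPB1 (chr7:76302673-76302702, plus strand) and LYRM1 (chr16:20900413-20900442, plus strand).
RAD23B, knockout peak: gagtcacgatgatggCGGCCACCAtcctgt
RPS24, knockout peak: ctcttttcctccttggctgtctgaagatag
RANBP6, knockout peak: agctttgacagagcgcaatggCGGCAACCG
BTF3, knockout peak: ccctttagctgccatcttgCGTCCCCGCgt
PSMD14, SiHa peak: aagtgcttcgcggcggaggcccgggcaact
HSPB1, SiHa peak: gcacttttctgagcagacgtccagagcaga
LYRM1, SiHa peak: atcatcacttccggtaaCCCCGCCGGccgc

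The pattern stood in 4 of these 7 stretches, in either list. Among the 4 were RANBP6 and BTF3, chosen after their values were seen, so this count is no measure of how common the pattern is. Over the first 50 bases the pattern was found on the sense strand in 17 of 23 starts covered by SiHa peaks of the member genes (73.9%). It was found in 16 of 21 covered by their knockout peaks (76.2%). The same was so for 68 of 117 starts covered by any SiHa peak (58.1%), 30 of 39 covered by any knockout peak (76.9%) and 55.5% of all 34961 RefSeq windows. The median share of C in those 50 bases was 30% for the SiHa starts, 28% for the knockout starts and 28% for all windows. The windows are few and the pattern is common at gene starts. The starts in the genes with peaks at different places gave like shares in both lists, while those under all peaks did not. Sequence elsewhere in the genes was not analysed here.

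In 657 of the 1191 genes (55.2%, 52.3 to 58.0) the mean knockout position lay on the 5′ side of the mean SiHa position, in 533 (44.8%) on the 3′ side, and in 1 gene the means were equal. Over all 1971 shared genes the 5′ share was 51.7%, and over the 780 with an overlap it was 362 genes (46.4%, 42.9 to 49.98). The strongest knockout peak lay 5′ of the strongest SiHa peak in 655 of the 1191 genes (55.0%), against 52.1% of all shared genes. A simple class is that of the 561 genes with a single peak in each list (47.1%), where 322 knockout peaks (57.4%, 53.2 to 61.5) were 5′ of the SiHa peak. By their middle bases, all knockout peaks lay 5′ of all SiHa peaks in 522 genes (43.8%), all lay 3′ of them in 388 (32.6%), and in 281 (23.6%) they lay between or on both sides. The lean to the 5′ side was thus a few percentage points above that of all shared genes, and both directions were common. With peaks of p at most 1e-05 alone the 5′ share was 51.95% (47.53 to 56.34). With the SiHa list reduced to the size of the knockout list it was 52.55% (48.74 to 56.35). In both settings the lean was thus no longer beyond counting error.

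The distance between the nearest SiHa and knockout peaks, counted on the genome with introns, ran from 16 to 419801 bases, with a median of 2537 (2068 to 2969) and quartiles of 509 and 12184. It was at most 200 bases in 161 genes (13.5%), 201 to 1000 in 249 (20.9%), 1001 to 10000 in 450 (37.8%) and over 10000 in 331 (27.8%). The 5′ share moved with this distance. It was 52.8% (44.8 to 60.7) in the closest class, 45.0% (38.7 to 51.4) in the next, 56.0% (51.3 to 60.6) in the third and 62.8% (57.4 to 68.1) in the farthest. The median distance was 3297 bases where the knockout peaks lay on the 5′ side and 1708 where they lay on the 3′ side.

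**Figure D1:**
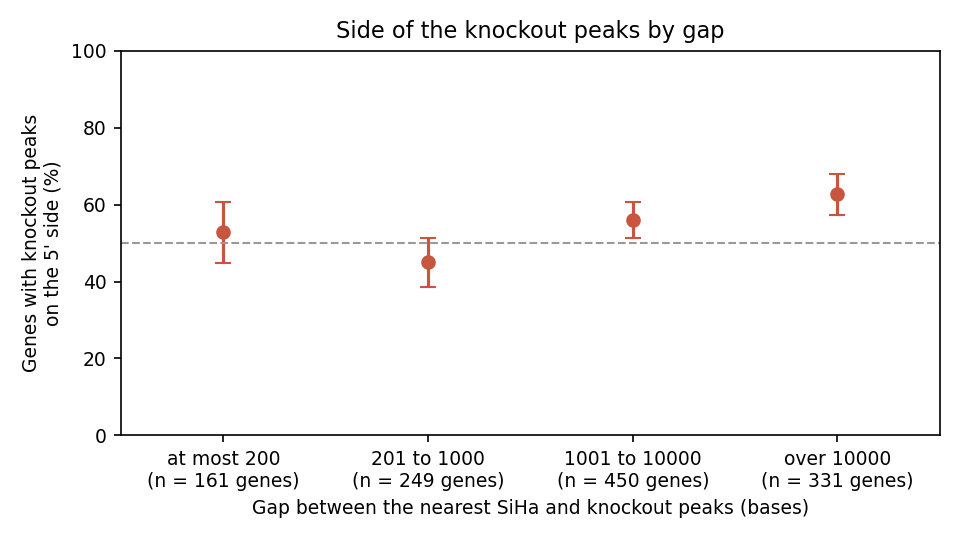
Share of genes whose mean knockout position lies on the 5′ side of the mean SiHa position (%, points, with 95% Clopper-Pearson bars), by the gap between the nearest SiHa and knockout peaks in bases; the dashed line marks 50%. The point for gaps over 10000 bases stands at 62.8% of 331 genes, and that for 201 to 1000 bases at 45.0% of 249 genes.

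The members closest to the limit of the rule were neighbours rather than distant sites. Both lists lie on a grid of about 30 bases, and 119 of the 120 member genes with a distance of at most 120 bases had one that was 1 to 3 bases short of a whole multiple of 30. A distance of at most 30 bases was found in 35 member genes. Just outside the rule, 32 shared genes overlapped by 1 base alone and 34 by fewer than 30. ADAMTS1, CAMSAP2, CAV1, CELSR2 and CITED2 are 5 of these. In CAV1, which codes for the caveolar coat protein caveolin-1, the last base of the SiHa peak at 116560469 to 116560856 on chromosome 7 is the first of the knockout peak at 116560856 to 116561035. In CELSR2, an adhesion receptor of the cadherin family, the knockout peak at 109274371 to 109274551 on chromosome 1 ends on the first base of the SiHa peak at 109274551 to 109274701. Such pairs differ from the closest members by 1 step of the grid.

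Of the 1191 genes, 985 (82.7%) could be named by position, and 971 of those (98.6%) were protein-coding. Among all named shared genes 60.2% met the rule. Place is given below as the middle base of a peak in percent of the RefSeq gene span from its 5′ end, introns included, so a long first intron moves a peak toward high values. SiHa peaks of these genes had a median place of 85.5% (83.8 to 87.8, 1777 peaks) and knockout peaks one of 79.1% (77.4 to 81.8, 1198 peaks). In the whole lists the medians were 83.9% and 77.2%, a difference of like size. In the shared genes with an overlap they were 81.5% and 81.8%. In genes with peaks in 1 list alone they were 84.0% for SiHa and 71.2% for the knockout.

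**Figure D2:**
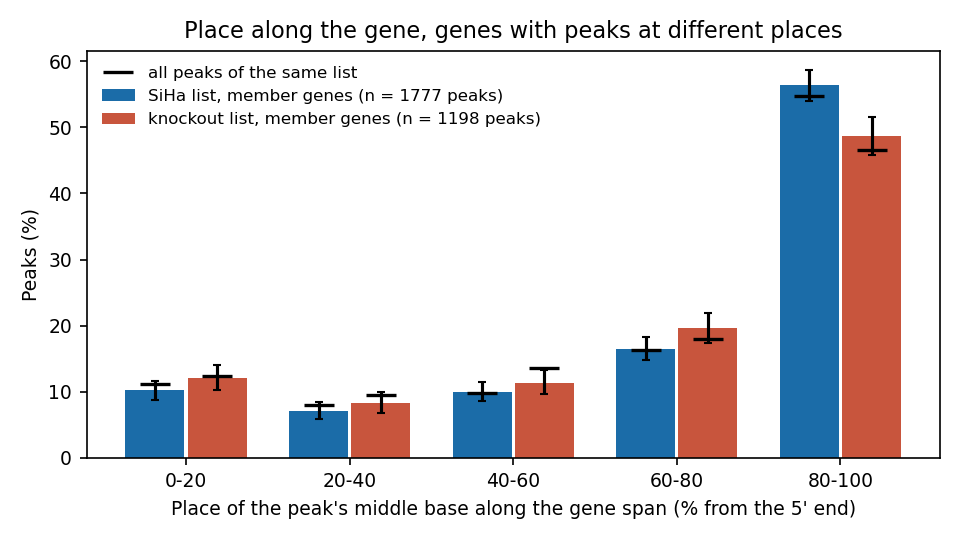
Share of peaks (%) in 5 equal stretches of the gene span, from the 5′ to the 3′ end, for SiHa (blue, 1777 peaks) and knockout (red, 1198 peaks) peaks of the named genes with peaks at different places; bars carry 95% Clopper-Pearson intervals and black dashes mark all peaks of the same list. The stretch at the 3′ end holds 56.3% of the SiHa and 48.7% of the knockout peaks.

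Within a gene the shift went either way, and in most genes it was over 10 percentage points. The place of the knockout peaks minus that of the SiHa peaks had a median of -1.55 percentage points (-3.20 to -0.18) and quartiles of -23.6 and 13.8. It lay within 10 points in 350 of 985 genes (35.5%). Knockout peaks lay more than 50 points nearer the 5′ end in 115 genes (11.7%) and more than 50 points nearer the 3′ end in 70 (7.11%).

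Both end zones held smaller shares of these peaks than of the whole lists. The last 1000 bases held 233 SiHa peaks (13.1%), against 16.9% of all SiHa peaks of named genes, and 146 knockout peaks (12.2%), against 14.6% of all knockout peaks. The first 1000 bases held 84 SiHa peaks (4.73%), against 7.07% of all SiHa peaks. There were 90 knockout peaks in this zone (7.51%, 6.08 to 9.15), an interval that includes the 8.67% of all knockout peaks. In the shared genes with an overlap the last 1000 bases held 14.2% of SiHa and 13.5% of knockout peaks. There the first 1000 bases held 6.82% and 7.31%. These shares too were below those of the whole lists. Only for SiHa peaks in the last 1000 bases (12.6 to 15.9) did the interval leave out the share of the whole list. The gene spans were long, with a median of 46759 bases, beside 40321 for shared genes with an overlap, 30932 for genes of the SiHa list alone and 29836 for genes of the knockout list alone. The part of span length in these counts was not tested.

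The genes also had fewer peaks than those with an overlap, a number that enters the rule, since each peak can give an overlap. They held 1.78 SiHa and 1.22 knockout peaks per gene, against 2.73 and 1.42. A single SiHa peak was found in 666 genes, 2 in 303, 3 in 128 and 4 or more in 94. A single knockout peak was found in 976, 2 in 181, 3 in 29 and 4 or more in 5. Peaks that share a base with another peak of the same gene and list, as in EPPK1 below, made up 18 of the SiHa peaks (0.85%, in 9 genes) and 10 of the knockout peaks (0.691%, in 4 genes).

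Peak widths, counted over blocks, had nearly equal medians, 181 bases in the SiHa list (quartiles 151 and 271) and 180 in the knockout list (151 and 181), but different upper ends. Over 300 bases were covered by 425 SiHa peaks (20.1%, 18.4 to 21.9) and by 12 knockout peaks (0.829%, 0.429 to 1.44). In the genes with an overlap these shares were 32.4% and 3.24%, and over all peaks of each list they were 21.1% and 1.38%. A width of 180 or 181 bases was found for 27.1% of the SiHa peaks and 58.1% of the knockout peaks. Over all peaks of each list these shares were 26.6% and 52.7%, so the whole lists differed in width in the same way. The widest were a SiHa peak of 1467 bases in TNC, which codes for the matrix protein tenascin-C, and a knockout peak of 600 bases. Peaks of 2 or more blocks, which cross a splice junction, made up 539 of the SiHa peaks (25.5%), against 25.2% of all SiHa peaks. In the knockout list they were 505 (34.9%, 32.4 to 37.4), against 31.3% of all knockout peaks. The share was much the same in genes of the knockout list alone (34.3%) and lower in genes with an overlap (21.1%).

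**Figure D3:**
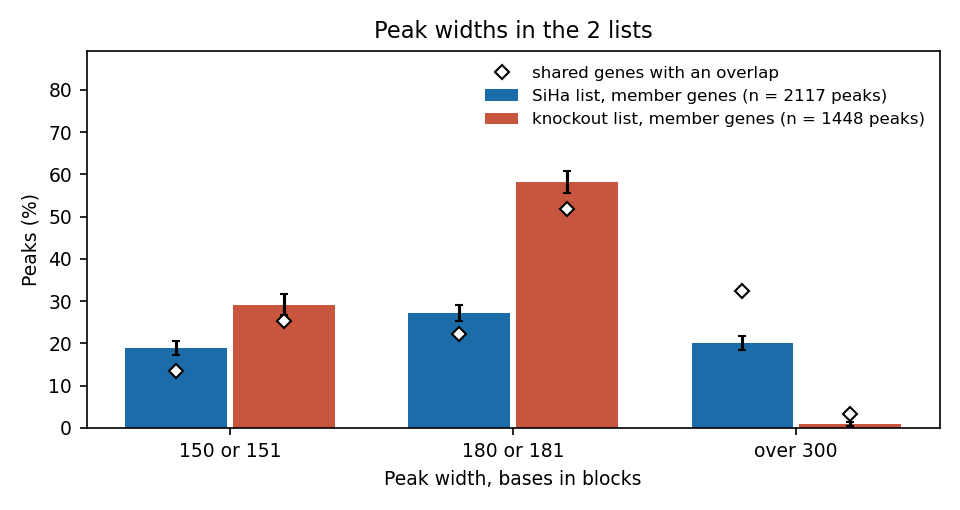
Share of peaks (%) of 150 or 151, 180 or 181 and over 300 bases (width counted over blocks) among SiHa (blue, 2117 peaks) and knockout (red, 1448 peaks) peaks of the genes with peaks at different places, with 95% Clopper-Pearson bars; open diamonds give shared genes with an overlap. Over 300 bases wide were 20.1% of SiHa and 0.829% of knockout peaks, beside 21.1% and 1.38% of all peaks of each list.

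The strength of a peak, given as −log10 of the p-value that the authors deposited, was lower than in genes with an overlap. Its median was 6.39 for SiHa peaks of these genes and 10.1 where there was an overlap, beside 6.05 for all SiHa peaks and 5.39 in genes of the SiHa list alone. For knockout peaks of these genes it was 4.94 and with an overlap 7.39, beside 5.45 for all knockout peaks and 4.94 in genes of the knockout list alone. A deposited false discovery rate of at most 0.05 was found for 1081 of the 1448 knockout peaks (74.7%), against 75.0% of all knockout peaks and 82.8% in genes with an overlap. Peaks of the genes with an overlap were thus stronger and more numerous per gene, and more of them were over 300 bases wide. The number and width of peaks enter the rule itself, since every further base can give an overlap. How far this accounts for these differences was not tested.

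The authors also deposited a fold enrichment for each knockout peak, a ratio whose reference is not stated. Many of these values repeat as whole multiples of 2.564 within their 3 digits, such as 7.69, 10.3 and 25.6. This was so for 874 of the 1448 knockout peaks (60.4%, 57.8 to 62.9), against 61.1% of all knockout peaks, 48.6% in genes with an overlap and 68.6% in genes of the knockout list alone. The median fold was 17.9 for peaks on the repeated values and 6.41 for the other peaks, while a false discovery rate of at most 0.05 was found for 66.1% of the first and 87.6% of the second. In 683 genes every knockout peak was on a repeated value, and the knockout side was 5′ in 361 of these (52.9%, 49.0 to 56.7). In 408 genes none was, and the side was 5′ in 239 (58.6%, 53.6 to 63.4).

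The genes strong in both lists were led by RRBP1, which codes for a ribosome-binding protein of the endoplasmic reticulum. Its SiHa peaks stood at 32.6%, 34.3%, 97.4% and 99.6% of the gene, the first with a p listed at 0, and its single knockout peak stood at 80.03%, with 3 blocks and a deposited p of 7.9e-40. YBX3, a cold-shock protein that binds RNA, had its SiHa peaks near the ends, at 0.481% and 91.1%, and its knockout peaks at 10.1%, 42.5% and 78.8% between them. In both genes the knockout peaks fell between SiHa peaks.

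RBM15 recruits the m6A writer complex to RNA. Of its 5 SiHa peaks 4 followed one another from 13.7% to 36% of the gene, the strongest, of 509 bases, with a p listed at 0, and the last stood at 97.2%. The knockout peak, at 110342487 to 110342666 on chromosome 1, came 388 bases after the fourth of them at 43.8%. BCLAF1, a nuclear protein of transcription and splicing complexes, had 1 SiHa peak at 41.1% and knockout peaks at 40.2%, 60.8% and 85.7%. BCDIN3D, an RNA methyltransferase of 5′ phosphates, had a single peak of 239 bases in each list. It stood at 65.5% in SiHa, with a p of 5e-67. In the knockout it stood at 2.22%, with a p of 1e-102 and a fold of 254 on the repeated values described above. PABPC1, the cytoplasmic poly(A)-binding protein, had SiHa peaks at 0.449%, 21.7%, 80.1%, 92.4% and 98.0%. Its knockout peak at 78.4%, with a p of 5e-73, lay 28 bases from the third of these. These genes thus range from nearly adjacent peaks to peaks far apart along the gene.

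The 6 genes with the knockout peak farthest toward the 5′ end had it at the very start and the SiHa peaks at the very end. In SPPL3, a protease within membranes, the knockout peak stood at 0.202% and the SiHa peak, of 330 bases, at 98.4%. In CWC22, a splicing factor that helps to load the exon junction complex, they stood at 0.657% and 98.9%. In TMEM120B, a membrane protein, the knockout peak was at 0.174% and the SiHa peaks at 96.0% and 99.8%. ADCY3, which makes cyclic AMP, had a knockout peak at 0.765% and SiHa peaks at 96.7% and 99.4%. SLC25A43, of the mitochondrial carrier family, had a knockout peak at 0.179% and a SiHa peak at 97.4%. RAD23B, a partner of XPC in nucleotide excision repair, had its knockout peak at 107283257 to 107283407 on chromosome 9, at 0.109% of the gene, over the start printed above, and SiHa peaks at 94.7% and 98.7%. All 6 knockout peaks had folds on the repeated values, from 7.69 to 25.6. The knockout peaks of SPPL3 and ADCY3 had a deposited false discovery rate of 0.526, and that of TMEM120B had the lowest of the 6, 5.25e-05.

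The reverse order was found in 6 further genes chosen by the same measure. IQGAP1, a scaffold of the actin skeleton, had its SiHa peak at 0.0847%, over a splice junction, with a p of 4e-44, and its knockout peak at 99%. PCDH7, a protocadherin, had SiHa peaks at 0.176%, 0.699% and 0.759% and a knockout peak at 99.3%, 419801 bases away. PSMD14, the deubiquitinase of the proteasome lid, had a SiHa peak at 0.0605% over the start printed above and a knockout peak at 96.8%. ABI3, of the complex that drives actin branching, had them at 0.475% and 96.5%. LYRM1 had SiHa peaks at 2.59% and 5.03% and a knockout peak at 99.5% with a p of 1.6e-60 and a fold of 244. UGDH, the enzyme that makes UDP-glucuronate, had them at 3.47% and 97.8%. Of these knockout peaks 5 had folds on the repeated values and IQGAP1's, with a fold of 3.16, did not. The false discovery rate of the knockout peak was 0.526 in ABI3 and 0.002 or lower in the other 5.

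The closest members were RPL37, with 16 bases between the nearest peaks, and AJUBA, ANXA2R-AS1, PABPC1 and RPL13, each with 28. AJUBA, a LIM adaptor at cell junctions, had a SiHa peak of 270 bases with a p of 1e-188 and, on the next step of the grid, a knockout peak with a p of 0.00066. In RPL13 the order was the other way along the gene, with the knockout peak (p of 0.004) at 37.4% and the SiHa peak (p of 4e-15) at 41.0%. In ANXA2R-AS1, an antisense RNA, the SiHa peak was the weaker, with a p of 0.027 against 2.8e-06. Neighbouring pairs of this kind are at different places by the rule alone.

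The genes with the most SiHa peaks had them in 1 or more clusters. ZFHX3, a transcription factor with homeodomains and zinc fingers, had 9, of which 2 lay near 84.1% and 7 from 98.6% to 99.8% of a very long gene, and its knockout peak stood at 84.0%, 1168 bases 5′ of the first. FARP1, an activator of small GTPases at the membrane, had 8 SiHa peaks from 63.4% to 99.2%. Its 3 knockout peaks stood at 32.7%, 82.2% and 97.3%, the first with a p of 4e-61 and a fold of 246 on the repeated values. NCKAP5 had 8 SiHa peaks, 7 of them from 88.7% to 89.8%. Its knockout peak at 88.9% had a p of 1e-134 and a fold of 538, also on the repeated values. This peak lay inside the cluster, 178 bases from the nearest SiHa peak and on none.

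Among named genes, ARHGAP10, EPPK1, HCFC1 and PCNX4 had the most knockout peaks, 4 each. ARHGAP10, which switches off small GTPases, had knockout peaks at 0.107%, 36.8%, 39.5% and 65.5% and 1 weak SiHa peak at 39.1%. HCFC1, a cofactor of transcription, had knockout peaks at 0.416%, 29.3%, 63.6% and 95.2% and SiHa peaks at 2.88%, 72.0% and 93.8%, so peaks of both lists were mixed along the gene. PCNX4 had SiHa peaks at 28.2% and 57.9% and knockout peaks at 41.3%, 83.1%, 85.3% and 85.7%, the third with a p of 2e-52. In EPPK1, the cytolinker epiplakin, the 4 knockout peaks were 2 pairs of near copies, at 73.1% and 86.8% or 86.9%, and the SiHa peaks were 1 such pair at 28.2%. No peak of EPPK1 had a p below 0.00066.

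The gene lists that follow group members by what their products do, and were chosen with earlier results of these data known. Over all named shared genes 60.2% lay at different places, which is the background for each count of members. The sides are counted among members, of which 55.2% had the knockout on the 5′ side, beside 51.7% over all shared genes.

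Of 13 genes of cytosolic ribosomal proteins with peaks in both lists, 11 (84.6%) had them at different places. In 10 of the 11 the mean knockout position lay on the 5′ side of the mean SiHa position. These proteins form the ribosome with ribosomal RNA, and their genes are short, so 1 exon can be a large part of the span. The median place was 54.1% for the 15 SiHa peaks and 29% for the 13 knockout peaks, and the median difference per gene was -26.5 points. RPL26 had its SiHa peak at 97.0% and its knockout peak at 3.33%, with a p of 1e-13. RPS15A had them at 98.7% and 60.6%, and RPL13 at 41.0% and 37.4%.

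RPL23 had 1 SiHa peak at 56.1% and knockout peaks on both sides, at 17.3% and 77.0%. RPS18 had a SiHa peak at 94.6% and knockout peaks at 14.1%, with a p of 7.9e-43, and 85.6%. RPL3 had SiHa peaks at 79.6% and 98.4% and a knockout peak at 60.7%. RPS6 had SiHa peaks at 26.6% and 38.5% and a knockout peak at 12.5%. RPS24 had SiHa peaks at 8.06% and 14.9%, the first of 450 bases with a p of 1e-154, and its knockout peak covered the first bases of the gene, printed above, at 0.336%. In RPL37 the SiHa peaks at 38.6% and 72.5% share bases with each other and the knockout peak stood at 29%. This knockout peak, at 40832245 to 40832425 on chromosome 5, lay between blocks of the first SiHa peak, which spans 40827906 to 40832526. Its place on the 5′ side thus rests on middle bases alone. With whole spans in place of blocks, 9 of 10 members of the group were on the 5′ side.

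The other 2 shared genes of the group, RPL38 and RPS7, had an overlap. Taken over every gene of the group with a peak, shared or not, the medians were close: 46.4% for 46 SiHa peaks in 33 genes and 45.1% for 19 knockout peaks in 16 genes. These include genes with a peak in 1 list alone. Ribosomal protein genes have many processed copies. How reads that fit several copies were placed is not known here, and their part in these peaks was not tested. Leaving out the repeated fold values left 7 of 8 on the 5′ side, and taking peaks with a p of at most 1e-05 left 7 of 9.

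**Figure D4:**
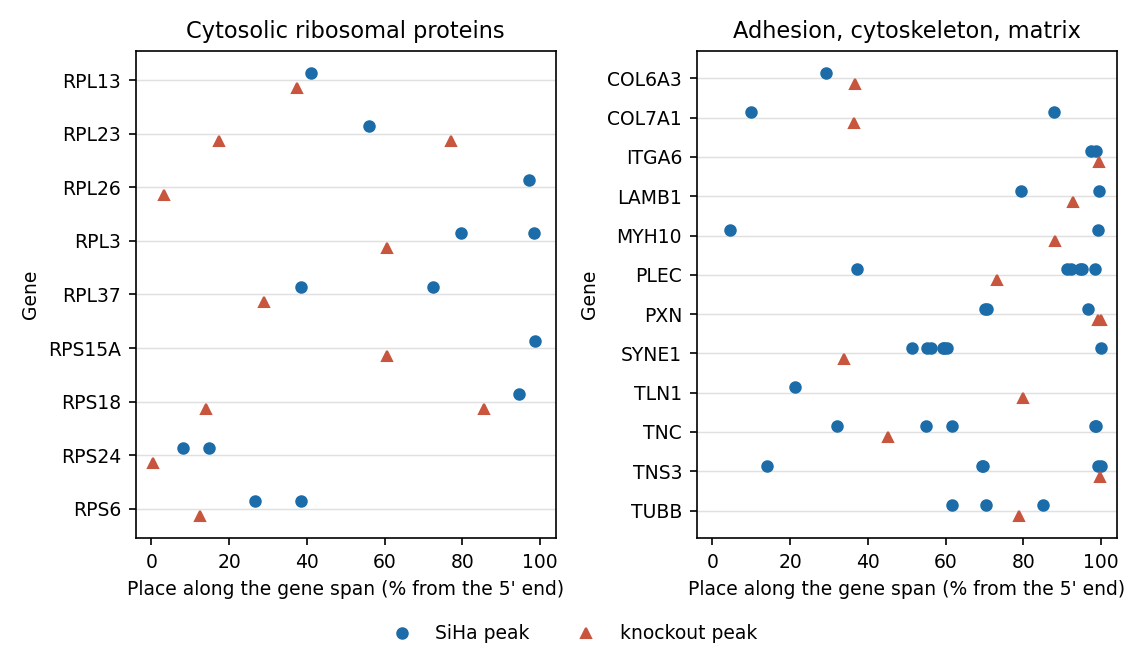
Place of every peak along the gene span (% from the 5′ end) in members coding for cytosolic ribosomal proteins (left, 9 of the 11) and for adhesion, cytoskeleton and matrix proteins (right, 12 of the 13); blue circles are SiHa peaks and red triangles knockout peaks. By mean position the triangles lie toward the 5′ end in 9 of the 9 genes on the left, beside 10 of 11 in the whole group, and toward the 3′ end in 8 of the 12 on the right, beside 9 of 13.

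Adhesion, cytoskeleton and matrix genes, which build junctions, filaments and the surrounding matrix, went the other way. Of 26 shared genes 13 had peaks at different places, and the knockout side was 3′ in 9 and 5′ in 4, with a median difference of 6.41 points. ITGA6, an integrin that binds laminin, had SiHa peaks at 97.5% and 98.6% and a knockout peak at 99.4%, 419 bases farther on. TLN1, which links integrins to actin, had a SiHa peak at 21.3% and a knockout peak at 79.8%. MYH10, a nonmuscle myosin, had SiHa peaks at 4.66% and 99.1% and a knockout peak at 88.2%. TUBB, a tubulin, had SiHa peaks at 61.6%, 70.5% and 85% and a knockout peak at 78.8%.

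On the 5′ side in this group were PLEC, SYNE1, TNC and COL7A1. PLEC, the cytolinker plectin, had a SiHa peak at 37.2%, a row of 5 from 91.2% to 98.5%, and a knockout peak at 73.2%. SYNE1, which ties the nucleus to actin, had 7 SiHa peaks from 51.3% to 99.9% and a knockout peak at 33.9%, with a false discovery rate of 0.155. Over every gene of the group the median places were 76.2% for SiHa and 61.0% for knockout peaks, so the members' order, 70.4% and 84.4%, was not that of the group.

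Chromatin regulators, which modify or move nucleosomes, gave the largest set: 23 of 32 shared genes (71.9%), with the knockout side 5′ in 14 and 3′ in 9. KDM5B, a histone demethylase, had SiHa peaks at 79.8%, 93.5% and 94.6% and knockout peaks at 73.9%, 79.5% and 95%, the nearest pair 89 bases apart. KMT2D, a histone methyltransferase, had 5 SiHa peaks from 49.4% to 70.8% and knockout peaks at 20.3% and 21.4%. CREBBP, a histone acetyltransferase, had SiHa peaks at 19.2% and 19.4% and 5 more from 96.0% to 98.6%, and a knockout peak at 88.7% with a p of 5e-22. ARID1A, of the SWI/SNF remodeller, had SiHa peaks from 91.4% to 98.4% and a knockout peak at 1.47%. BAZ2A, of a nucleolar remodeller, had SiHa peaks at 53.8% and 75.0% and a knockout peak at 95.2%. The median differences were small beside this spread, at -4.20 points.

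Of 9 shared translation factors 5 had peaks at different places, 3 with the knockout on the 5′ side. EIF5, which triggers GTP hydrolysis at the start codon, had its SiHa peak at 38.8% and a knockout peak of 3 blocks at 5.55%. EIF3F had a SiHa peak at 84.8% and knockout peaks at 2.40% and 89.1%, and EIF3B had peaks at 98.8% in SiHa and 94.9% in the knockout. EIF3H, another subunit of the same initiation factor, had a SiHa peak of 599 bases in 5 blocks at 96.4% and a knockout peak at 98.7% whose false discovery rate was 0.526.

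Splicing factors and hnRNPs had 7 of 11 shared genes at different places, 3 on the 5′ side and 4 on the 3′ side. In SRSF5, a serine- and arginine-rich factor, the SiHa peak at 58.0% and the knockout peak at 63.0%, with a p of 7.9e-22, were 29 bases apart. RBM39 had its SiHa peak at 68.4% and its knockout peak at 24.5%, and DDX46, a spliceosomal helicase, had SiHa peaks at 20.7% and 98.8% and a knockout peak at 92.7%. HNRNPUL1, which binds RNA and takes part in the response to DNA breaks, had its SiHa peak at 41264696 to 41264983 on chromosome 19, at 5.10% of the gene, with 2 blocks and a p of 6.3e-42. Its knockout peak lay at 41306523 to 41306672, at 97.4%, with a p of 0.0051 and a false discovery rate of 0.0631.

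Among RNA modification enzymes and readers 3 of 7 shared genes were at different places. Beside RBM15, YTHDC1, a nuclear reader of m6A, had its SiHa peak at 90.2% and its knockout peak at 90.8%, 59 bases apart. ALKBH5, an m6A demethylase, had them at 98.6% and 87.5%. Among nucleolar biogenesis factors 5 of 12 shared genes were at different places, 4 of them with the knockout on the 5′ side. NOP58, a core protein of box C/D particles, had its SiHa peak at 64.9% and its knockout peak at 90.2%. DDX56, a helicase of the nucleolus, had them at 98.9% and 95.2%, 29 bases apart. RRP12 had SiHa peaks at 78.7%, 95% and 98.7% and a knockout peak at 24.1%. UTP3 had them at 26.0% and 3.27%.

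Chaperones had 4 of 7 shared genes at different places, 2 on each side. CANX, the lectin chaperone calnexin, had a SiHa peak over 3 blocks at 90.7% with a p listed at 0, and knockout peaks at 96.0% and 96.7%. HSPB1, a small heat shock protein, had SiHa peaks at 2.16% and 15.9%, the first over the start printed above, and a knockout peak at 89.2% with a p of 3.2e-36. HSPA4, a nucleotide exchange factor for HSP70, had SiHa peaks at 96.2% and 97.5% and a knockout peak over 4 blocks at 40.4%. CDC37, which brings kinases to HSP90, had them at 64.1% and 23.3%.

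In signalling, NOTCH1 was the 1 of 4 shared Notch and Wnt genes at different places. Its SiHa peaks stood at 94.3% and 97.1% and its knockout peak, with a p of 7.9e-12 and a fold of 48.7 on the repeated values, at 73.2%. Receptor tyrosine kinase and PI3K-mTOR genes had 5 of 11, with the knockout on the 5′ side in 3. IGF2R, the receptor that clears IGF2, had SiHa peaks at 64.9%, 73.2%, 73.5%, 95.4% and 99.5%, the fourth of 929 bases with a p listed at 0, and knockout peaks 5′ of all of them at 53% and 63.1%. RPTOR, the subunit that binds mTORC1 substrates, had SiHa peaks at 82.3%, 99.53% and 99.98% and a knockout peak at 69.5%. AKT1 had its peaks at 76.4% and 80.7%, and AKT2 at 0.895% and 84.1%, with false discovery rates of 0.525 and 0.526 for the knockout peaks.

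Cell cycle and replication genes had 4 of 10 shared genes at different places, with the knockout on the 5′ side in 3. CENPF, a kinetochore protein of mitosis, had a SiHa peak at 70.9% with a p of 5e-58 and a knockout peak at 63.8%. BRCA2, of homologous recombination, had SiHa peaks at 20.8% and 97.7% and a knockout peak at 20.5%, 119 bases 5′ of the first. CDK6, a kinase of the G1 phase, had 6 SiHa peaks, 2 at 1.31% and 1.41% and 4 from 96.0% to 98.6%, and a knockout peak at 99.9%. Metabolic genes had 2 of 7. ACACA, which makes malonyl-CoA, had a SiHa peak at 0.108% (p of 0.0069) and a knockout peak at 78.0%. HK2, a hexokinase, had a SiHa peak at 98.8% and knockout peaks at 72.8% and 97.9%, with false discovery rates of 0.155 and 0.0912.

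ALB, the gene of serum albumin and a marker of liver cells, was at different places too. Its SiHa peak, of 240 bases in 3 blocks, stood at 77.3%, and its knockout peak at 25.3% with a p of 0.01 and a false discovery rate of 0.526. The globin genes HBA1, HBA2 and HBB had peaks in both lists that overlapped. Peaks in genes of cells other than the line's own are thus present in both lists, and their origin was not tested.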

How the data were processed

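RNA captured with an ac4C antibody and its input were sequenced in 4 groups of 2 replicates. Per the submitters' processing notes, FastQC 0.11.7 and GRCh38 (hg38) were used. The aligner, peak caller, annotation and treatment of replicates were not given in the sources used here. Per the file headers, the authors deposited a p-value for each peak in both lists and, in the knockout list, log10 scores of p and of the false discovery rate, with a ratio called fold enrichment. These values were used for description, ranking and filters inside each list. The authors' replicates cannot be separated in them, so the depth is unknown.

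Of 12928 SiHa and 4559 knockout lines, 1 repeated SiHa line was left out, as were 3 peaks of each list off chromosomes 1 to 22, X and MT. Blocks overlapped when they shared at least 1 base on the same strand. Gaps were counted on the genome, and sides were taken from the strand. The overlap step was tested on simulated data.

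The lists hold Ensembl identifiers without names. An identifier was named when at least 90% of its bases lay in 1 RefSeq span of GRCh38.p14 on its strand, where the strand is given, and no other identifier claimed that span: 7196 of 9045 (79.6%) were named. Without the strand, 27 of 4888 names that could be checked would have stood on the other strand. Names by position are less certain than those of an annotation. RefSeq gives the sequences too.

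The members and the 13 gene lists (621 entries) were chosen with earlier results of these data known. Named genes were, among named members: the 8 with the lowest rank sum of both lists' strongest p, the 6 with the knockout farthest 5′ and the 6 farthest 3′, the 5 with the smallest gap and 5 other shared genes with the smallest overlap, the 4 with the most peaks in each list, up to 3 members of each list by rank sum, and HNRNPUL1, with ties in alphabetical order. Other genes were named after their values were seen. A few genes that this rule or the lists name are counted but not reported here. No test was run, since neither peaks nor genes are replicates. Analysis used Python 3.11.15, pandas 2.3.3, numpy 2.4.6, scipy 1.17.1 and matplotlib 3.10.9.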

Additional observations from a re-analysis of the deposited data

How the results depend on the processing

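With 1 list per population, no paired analysis was possible because the lists hold no value for a replicate, and no replicate could be left out. A longer cytidine pattern, planned for the sequence of whole peaks, was not run, since no genome was used here. Of 103 values under other settings 83 stayed within the interval of the reported value (counts of genes within 1.5 times) and 20 moved. Direction was checked for the 5′ share of member genes alone, and it did not change. Counts of genes were compared without regard to the number of genes they came from. The cause of the moves was not tested, beyond what each setting removes by its construction. With the strongest peak of each list alone, 73.97% of shared genes had no overlap, the median gap was 4390 bases and the SiHa width 237.5 bases. With blocks within 200 bases counted as the same place, 52.26% had no overlap and the gap was 3706 bases. Without knockout peaks on repeated folds these were 54.46% and 3979 bases, with a knockout place of 77.22%. With knockout peaks of a false discovery rate of at most 0.05, 58.04% had no overlap and 53.74% of knockout peaks were on repeated folds. With peaks of p at most 1e-05, 54.28% had no overlap and the 5′ share was 51.95% (47.53 to 56.34). The share of all shared genes was not computed with that filter. Under the same filter the SiHa width was 241 bases and 54.3% of knockout peaks were on repeated folds. With the SiHa list reduced to the size of the knockout list, the SiHa width was 299 bases and 6 of 7 ribosomal protein members were on the 5′ side. With the span set by the peaks themselves, median places were 80.54% for SiHa and 59.39% for the knockout. The adhesion members on the 3′ side were 16 of 24 with the strongest peaks and 4 of 6 with p at most 1e-05, beside 9 of 13 in the main setting. Settings with 30 shared bases, names without strand and the 2 gene groups' side counts were chosen after seeing the data.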
